A study of Mus musculus with 2 samples.

Results

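Thymic T cells with high transcript levels of the immediate-early genes Egr1, Egr3 and Nr4a1 were examined in 1 droplet single-cell RNA capture. A cell was a member when it held at least 4 unique molecular identifiers (UMIs, 1 per captured transcript) of these 3 genes together. It also had to hold at most 1 UMI of Tnfrsf9, at most 1 of Ctla4, Gpr83, Lrrc32 and Nrp1 together, and 0 of Mki67 and Top2a. Of 4453 cells assigned to a mouse, 163 met the rule (3.66%, exact 95% interval 3.13 to 4.25%). They are called immediate-early cells here. The cells were thus chosen by the measured UMIs of the 3 genes of the sum and the 7 genes of the limits, whose values are a description.

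The cells came from 2 C57BL/6 mice, 1 Foxp3eGFPxLta-/- and 1 Foxp3eGFP, and both mice carried a Foxp3 reporter that makes eGFP. The first mouse also lacked Lta, the gene of lymphotoxin alpha, and the second was its control. From each thymus, 20000 live CD4+ CD8- CCR6- CD3e+ cells positive for CD25, for eGFP or for both were sorted after CD8+ and CD11c+ cells had been depleted, tagged with a hashtag antibody and pooled into 1 well. No source used here gives the animals' age or sex. With 1 mouse per genotype no p-value was computed, and a difference between the mice cannot be told apart from a difference between the genotypes. Intervals throughout are exact 95% ones and cover counting error only.

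Immediate-early genes are transcribed within minutes of a signal, without new protein synthesis. In T cells, ligation of the T cell receptor acts through the Ras-ERK pathway and calcium to switch on Egr zinc-finger factors, Nr4a orphan nuclear receptors and AP-1 subunits, together with phosphatases and inhibitors that later damp the signal. In the thymus such transcripts mark cells that have recently met self-peptide on MHC, a step in positive selection and in the making of regulatory T (Treg) cells.

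The members comprised 84 of 2244 Lta-/- cells (3.74%, 3.00 to 4.61%) and 79 of 2209 Foxp3eGFP cells (3.58%, 2.84 to 4.44%). The log2 ratio of the shares was 0.07 (-0.39 to 0.53), so the 2 shares lay within each other's intervals. After every cell was thinned to 3000 UMIs, which left out 162 Lta-/- and 147 Foxp3eGFP cells with fewer, the rule found 57 of 2082 Lta-/- cells (2.74%) and 57 of 2062 Foxp3eGFP cells (2.76%). A sum of at least 4 under no limit was found in 183 Lta-/- and 177 Foxp3eGFP cells. Of those 360 cells, 197 were left out by a limit, 103 of them on Tnfrsf9, 78 on the Treg genes and 64 on Mki67 or Top2a, with 44 failing more than 1.

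Median depth was similar in members and other cells. It was 5065 UMIs in the Lta-/- mouse and 5390 in the Foxp3eGFP mouse, against 5413 and 5550.5 UMIs in the other cells of those mice. Every member held at least 23 UMIs of 9 T cell markers, with a median of 59. Of 36 markers of B cells, plasma cells, myeloid cells, thymic epithelium and erythroid cells, Cd79a, Ms4a1, C1qa, Itgax and all 6 erythroid genes stood at 0 in the members. However, 3 members held 20 or more UMIs of these markers. A Foxp3eGFP cell held 301 UMIs of Cd74 and 78 of H2-Aa, another Foxp3eGFP cell held 263 UMIs of Lyz2, and a Lta-/- cell held 25 UMIs of Fcer1g with 60 of Xcl1. They are counted as members, and results that rest on them are also given without cells of that kind. Cells with both hashtags numbered 185, of which 6 met the member limits. A doublet of 2 cells from the same mouse cannot be found by hashtag, and its part in the results was not tested.

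Egr1 supplied 59.2% of the UMIs of the 3-gene sum in the members, Nr4a1 28.0% and Egr3 12.8%. Egr1, an ERK-induced zinc-finger factor, stood at 852 CPM (UMIs of the gene per 1000000 UMIs of the cells summed) in Lta-/- and 979 in Foxp3eGFP members, and at 50.2 and 46.8 in the other cells of those mice. From here on a pair of levels belongs to the Lta-/- and the Foxp3eGFP mouse. Nr4a1, the orphan receptor Nur77 that is widely used as a reporter of receptor signal strength, stood at 382 and 483 in Lta-/- and Foxp3eGFP members and at 40.3 and 39.95 in the other cells. Egr3 stood at 211 and 184 in the members and at 11.1 and 7.2 in the other cells. These gaps follow from the rule. All 3 genes were detected in 39 members, Egr1 with Nr4a1 in 42, Egr1 alone in 51, Nr4a1 alone in 9 and Egr3 alone in 0. The sum had a median of 7 and reached 45, with 29 members at the limit of 4 and 38 cells that met every other condition just outside it at 3.

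Across all genes, a gene was called higher or lower when its summed level differed at least 1.5-fold over both mice together and in each mouse, among genes with 100 or more UMIs in the 2 classes together. Against all 4290 other cells, 316 of 9649 genes were called higher (3.27%) and 589 lower (6.1%). A call is a fold and not a test. Among the 12 most raised were Egr2, Nr4a3, Nab2 and the early-response genes Fos, Junb, Ier2, Zfp36 and Csrnp1. Egr2, the Egr family member tied to receptor-induced restraint and lineage choice, stood at 92.0 CPM in Lta-/- and 137 in Foxp3eGFP members, against 11.1 and 7.63 in the other cells. The 2 member levels lay far above both levels of other cells, and the fold over both mice was 12.3 (log2 3.62, 3.28 to 3.94).

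Nr4a3, the receptor Nor1 and the named marker that the rule did not use, stood at 143 CPM in Lta-/- and 147 in Foxp3eGFP members, against 18.6 and 22.4 in the other cells, 7.06-fold. It was detected in 41 of the 163 members, so most members carried no Nr4a3 UMI. Nr4a2 stood at 59.3 and 34.2 against 4.57 and 3.58 CPM and Nab2, a corepressor that binds Egr proteins and is itself an Egr target, at 114 and 113 against 35.8 and 31.1. Of 17 tested genes on a list of receptor-induced transcription factors, 5 were called higher (Egr2, Nr4a2, Nr4a3, Nab2 and Tox) and 0 lower, with a median log2 ratio of 0.48 beside 0.00 over all genes tested. Irf4, a factor of sustained receptor signalling, stood at 12.3 and 6.41 in the members against 10.2 and 9.35 CPM, on 9 UMIs in all.

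**Figure D1:**
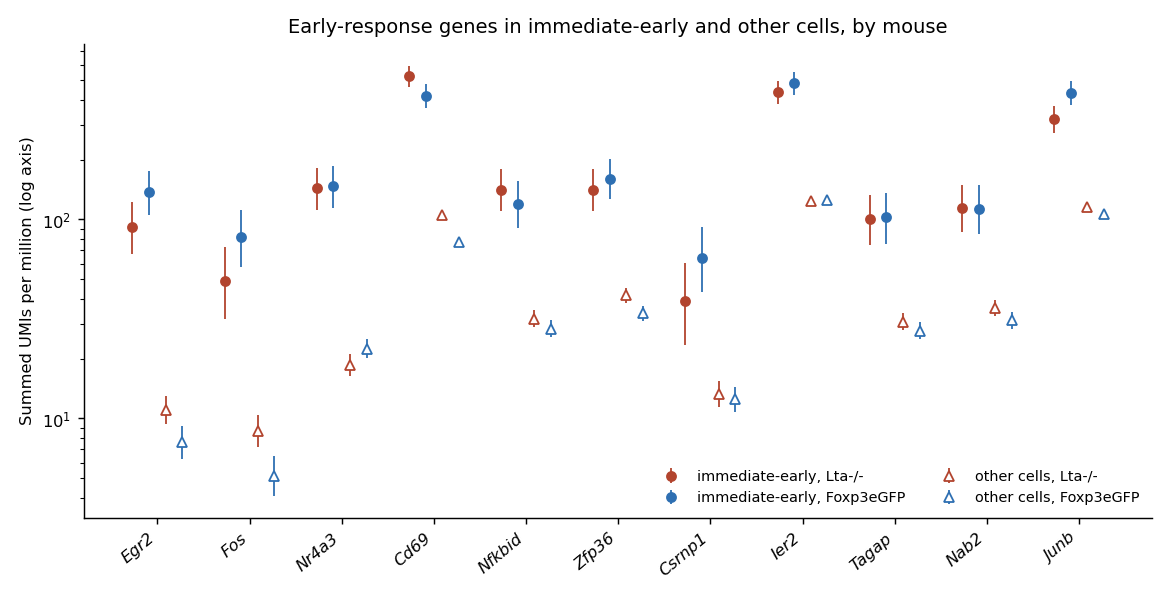
Summed level in CPM (log axis) of the 11 most raised genes, Fcer1g left out since 4 members carried it, in immediate-early cells (filled circles) and all other cells (open triangles) of the Lta-/- (red) and Foxp3eGFP (blue) mouse, with exact 95% Poisson intervals. Both filled points of each gene lie above both open points, as for Egr2 at 92.0 and 137 against 11.1 and 7.63.

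The sequence before a start of Nr4a1, a gene of the rule, is shown with its matches to the cAMP-response half-site. It is the stretch of 250 bases before the 1 Nr4a1 transcript start listed in the RefSeq promoter table used here (build GRCm38.p6, plus strand, chr15:101266596-101266845). RefSeq's whole Nr4a1 gene spans chr15:101253902-101274795, so this start is an internal one and other starts of the gene lie before it. Capitals mark the cAMP-response half-site TGACG or its reverse complement CGTCA, searched on both strands.
Nr4a1: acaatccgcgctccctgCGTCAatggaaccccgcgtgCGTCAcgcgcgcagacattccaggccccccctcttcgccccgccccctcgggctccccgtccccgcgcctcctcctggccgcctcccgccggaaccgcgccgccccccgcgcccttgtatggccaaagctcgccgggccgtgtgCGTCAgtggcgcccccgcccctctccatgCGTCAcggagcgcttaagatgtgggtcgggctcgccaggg
The window held 4 half-sites and 0 CArG boxes, the motif bound by serum response factor. Before their listed starts, which also lie inside the annotated gene, Nr4a3 held 4 half-sites, and Egr2, at the start with most matches of 5 listed, 2 half-sites and 1 CArG box. At least 1 half-site was found before 19.8% of 27025 genes, at least 3 before 0.777% and a CArG box before 1.62%. Of the 12 genes with the largest rise, 10 were in the table, 6 with a half-site and 2 with a CArG box (Egr2 and Zfp36). A match is a run of letters and not a shown site. No motif other than the half-site and the CArG box was searched, so other routes to these genes were not examined.

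AP-1 subunits and other early-response genes were raised as a group. Of 16 tested, 12 were called higher and 0 lower, with a median log2 ratio of 1.10, and their summed level was 4540 and 4702 CPM in Lta-/- and Foxp3eGFP members against 2587 and 2466 in the other cells. Fos, an AP-1 subunit, stood at 49.1 and 81.2 in the members against 8.70 and 5.16 in the other cells (9.43-fold, and log2 3.03 without the cells rich in markers of other types beside 3.24 with them). Junb stood at 319 and 432 against 116 and 106 (3.38-fold), and Ier2, an early nuclear factor, at 435 and 485 against 124 and 125 (3.70-fold). Zfp36, which binds AU-rich elements and hastens the decay of cytokine transcripts, was 4.02-fold higher, and Csrnp1 was 3.98-fold higher. Jun stood at 6.13 and 14.96 in the members against 20.2 and 11.8 CPM, on 10 UMIs. Jund was at 695 and 735 against 663 and 648, a log2 ratio of 0.13 (0.01 to 0.24).

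Tissue handling can itself raise AP-1 and heat-shock transcripts, so heat-shock genes were read beside them. Of 11 tested, 0 were called higher and 2 lower, Hsp90aa1 and Hsph1. Hspa8, a constitutive chaperone, stood at 897 and 998 CPM in the members against 1018 and 1125. Summed, heat-shock genes stood at a log2 ratio of -0.21 (-0.25 to -0.17) over all other cells. Over the cells that met the same limits, described further on, the ratio was 0.12 (0.08 to 0.16), with 1 gene called higher (Hspa5) and 0 lower. The part of handling in the AP-1 values was not tested.

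Some brakes on the MAPK pathway were raised too. Of 11 tested MAPK phosphatases and Sprouty-family genes, 4 were called higher (Dusp2, Dusp5, Dusp6 and Dusp10) and 0 lower, and the summed level was 1361 and 1327 CPM in the members against 631 and 656 (log2 1.06, 0.98 to 1.14). This was the largest summed ratio among the 17 functional lists. The median log2 ratio over its tested genes was 0.62, below the 1.10 of the early-response list. Dusp2, a nuclear MAPK phosphatase, stood at 670 and 573 in the members against 211 and 210 in the other cells. Dusp5, a nuclear ERK phosphatase, stood at 174 and 231 against 70.0 and 81.9, and Dusp6, its cytoplasmic counterpart, at 57.2 and 49.2 against 18.7 and 15.1. Spry1 stood at 12.3 and 12.8 against 6.93 and 9.49 on 12 UMIs.

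At the surface, Cd69, an early activation antigen that holds T cells in the thymus by pulling S1PR1 inward, stood at 525 and 419 CPM in the members against 106 and 77.2 in the other cells (5.21-fold), and was detected in 124 members. Cd40lg, the T cell ligand of CD40, stood at 213 and 175 against 63.4 and 58.7, and the inhibitory receptor Btla was 1.79-fold higher. These 3 were the called genes of 18 tested receptors. Cd5, whose level tracks receptor signal strength in thymocytes, stood at 687 and 797 against 480 and 440, a log2 ratio of 0.69 (0.58 to 0.80) that missed the fold in the Lta-/- mouse. Among NF-kB genes, 3 of 15 were called higher: Nfkbid, a nuclear IkB protein, at 141 and 120 against 31.8 and 28.3 (4.36-fold), Rel at 237 and 274 against 141 and 168, and Tnfaip3, an ubiquitin-editing inhibitor of the pathway. Tagap, a GTPase-activating protein of activated T cells, was 3.48-fold higher. Tnf was 3.07-fold and Tnfsf11, the gene of RANKL that signals to medullary epithelium, 2.40-fold higher. Ltb, the membrane partner of lymphotoxin alpha, stood at 648 and 720 in the members against 677 and 699.

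The genes called lower against all other cells were led by cell-cycle genes. Pclaf, Tpx2, Knl1, Cdca3, Birc5, Nusap1 and the histone genes Hist1h2ap, Hist1h2ae, Hist1h3c and Hist1h1b held between 0 and 11 UMIs each in the members, and 13 of 14 tested proliferation genes were called lower. The limit on Mki67 and Top2a removes cycling cells, so these values follow from the rule. Igha and Igkc, immunoglobulin genes of plasma cells, were also among the 12 lowest, at log2 ratios of -6.90 and -5.23. They were not called, since both missed the fold in the Lta-/- mouse. Igkc stood at 8.18 CPM in Lta-/- members against 9.95 in other Lta-/- cells and at 0 against 293 in the Foxp3eGFP mouse, where a single other cell held 7090 UMIs of plasma cell markers. Fcer1g, an Fc receptor chain of myeloid and NK cells, was 5.63-fold higher on 59 UMIs in 4 members, and its log2 ratio without the cells rich in such markers was -1.34.

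To set the limits aside, the members were also compared with the 2097 other cells that met the same limits and held a sum of at most 3, at a median of 4826 UMIs. Of 7814 genes, 216 were called higher (2.76%) and 181 lower (2.32%). The 2 comparisons share the members. Among genes tested in both, 135 higher calls were shared, 58.4% of the 231 against all other cells and 62.5% of the 216 here. Egr2 was 24.0-fold higher than in same-limit cells, Nr4a3 19.7-fold, Fos 16.6-fold, Nfkbid 8.603-fold, Tagap 6.48-fold, Cd69 6.05-fold, Dusp5 5.00-fold and Cd40lg 3.78-fold. Gadd45b, a stress-response gene that NF-kB induces, was 7.45-fold higher, at 85.9 and 122 in the members against 17.7 and 9.57 CPM, from 21 members. Xcl1 is named by the same rule, but 60 of its 63 UMIs came from 1 cell.

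Against same-limit cells 4 of 10 tested BCL2-family genes were called higher. They were Bcl2a1b and Bcl2a1d, prosurvival A1 proteins, Bcl2l1, which encodes Bcl-xL, and Bcl2l11, which encodes the death effector Bim. Bcl2a1b stood at 182 and 237 CPM in the members and 57.3 in same-limit cells, and Bcl2l11 at 155 and 109 against 63.2. Genes of opposed function were thus called together. Against all other cells, Bcl2a1b alone of 11 tested genes of this list was called higher. Myc was 1.51 on the log2 scale higher (1.16 to 1.84), at 125 and 70.5 in the members against 34.6 in same-limit cells. It was not called against all other cells.

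Genes of thymic exit were among those lower than in same-limit cells. Klf2, the factor that switches on S1pr1 and L-selectin in mature thymocytes, stood at 350 CPM in Lta-/- and 524 in Foxp3eGFP members, against 684 and 808 in same-limit cells, a log2 ratio of -0.77 (-0.92 to -0.63). A single Foxp3eGFP member supplied 67 of its 416 UMIs, and without the cells rich in markers of other types the log2 ratio was -0.995. S1pr4 and Dapl1 were called lower as well, 3 of 19 tested genes of maturation and egress with 0 higher. S1pr1, the exit receptor, had a log2 ratio of -0.75 (-0.98 to -0.53) that missed the fold in the Lta-/- mouse, and Ccr7 -0.59 (-0.82 to -0.37). The other named genes that were lower were Trim59, Rgs1, a brake on chemokine receptors, Tsc22d3, a glucocorticoid-induced leucine zipper gene, BE692007, Ly6a, which encodes Sca-1, Rhof, Fam169b and Ifngr1, at log2 ratios from -1.64 (Trim59) to -0.76 (Ifngr1). Igha (-7.06, -12.4 to -4.58) and Igkc (-6.57, -8.45 to -5.21) were also named, on 1 and 4 UMIs in the members, but missed the fold in the Lta-/- mouse.

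Ccr9 and Satb1, genes of immature thymocytes, were higher in the members than in all other cells. Ccr9, the chemokine receptor of cortical and newly selected thymocytes, stood at 239 and 244 CPM in Lta-/- and Foxp3eGFP members against 109 and 86.1 in all other cells, and its log2 ratio over same-limit cells was 0.77 (0.56 to 0.97). Satb1, a chromatin organiser of thymocytes, stood at 1376 and 1488 against 748 and 713 in all other cells. Against same-limit cells its log2 ratio was 0.56 (0.48 to 0.64), short of the fold in the Lta-/- mouse. Dntt and Ly6d, of still earlier cells, were called lower against both, on 7 and 3 UMIs, and Rag1 and Rag2 stood at 0. The summed immature list was 0.74 higher (0.68 to 0.80) than in all other cells and 0.52 (0.46 to 0.59) than in same-limit cells, both log2, although 2 of its 13 and 2 of its 11 tested genes were called lower. Markers of double-positive thymocytes, 11 in all with 2 at 0, summed to 452 and 464 CPM in the members against 355 and 402 in all other cells, and the part of such cells in these values was not tested.

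The Treg lineage list, without the limit genes, summed to 1666 and 2221 CPM in the members against 2489 and 2732 in all other cells (log2 -0.43, -0.50 to -0.37), with 3 of 16 tested genes called lower (Socs2, Rgs1 and Penk) and 0 higher. Against same-limit cells the value was 0.03 (-0.04 to 0.10) over both mice, and the mice went opposite ways, at -0.09 (-0.20 to 0.01) in the Lta-/- and 0.13 (0.04 to 0.22) in the Foxp3eGFP mouse. Transcripts of the sort markers were sparse. Foxp3 was detected in 22 of 163 members (13.5%, 8.66 to 19.7%), against 20.2% of other cells and 15.2% of same-limit cells. Il2ra, the gene of CD25, was detected in 16 members (9.82%, 5.72 to 15.5%), against 22.3% and 12.4%. In the 333 other cells with 3 or more Ccr9 UMIs, at a median of 5981 UMIs against 5265 in the members, the shares were 6.61% for Foxp3 and 9.31% for Il2ra. At 3000 UMIs per cell Foxp3 was detected in 6.83% of members (3.46 to 11.9%), against 13.7% of other cells and 3.68% (1.92 to 6.34%) of those rich in Ccr9. Il2ra was then detected in 8.70% of members (4.84 to 14.2%), against 16.8% of other cells and 4.91% (2.83 to 7.85%) of those rich in Ccr9. At equal depth both shares in the members thus lay below those of other cells. They lay above those of Ccr9-rich cells, with intervals that overlapped. In same-limit cells at that depth the shares were 10.4% (9.09 to 11.9%) for Foxp3 and 9.64% (8.34 to 11.1%) for Il2ra. Both of these intervals overlapped those of the members. The other cells include cells beyond the limits on Tnfrsf9 and the Treg genes, and the part of the rule in the gap to them was not tested. A single member held 36 of the 74 Il2ra UMIs.

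**Figure D2:**
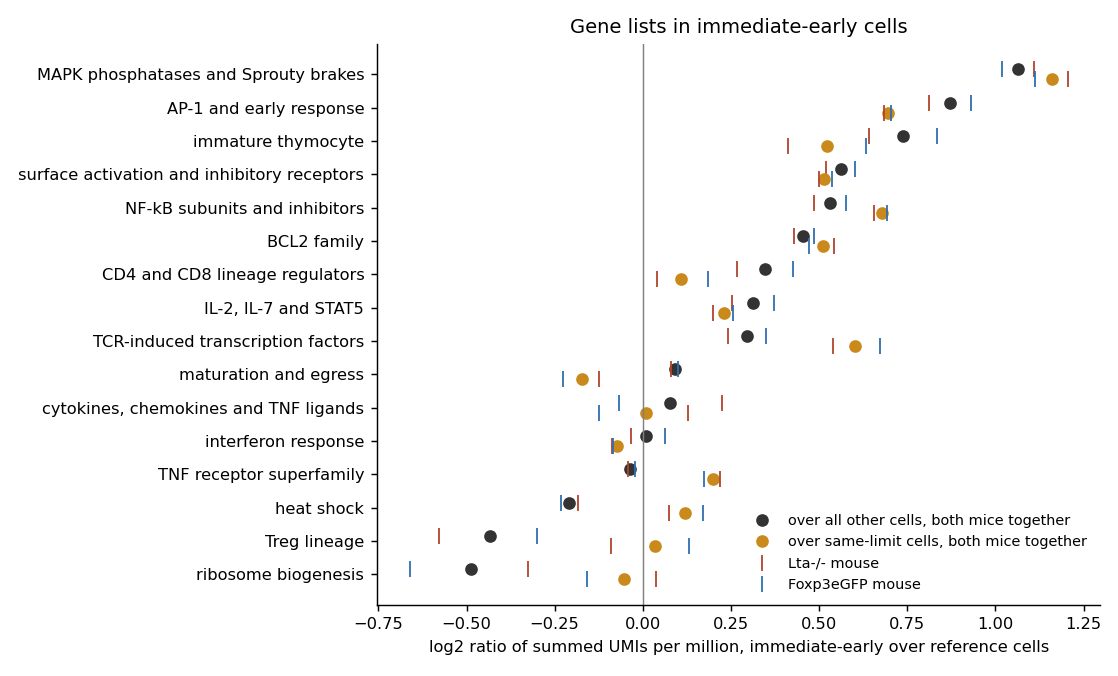
Log2 ratio of summed CPM of 16 gene lists, immediate-early cells over all other cells (black) or over same-limit cells (gold), with ticks for the Lta-/- (red) and Foxp3eGFP (blue) mouse alone. MAPK brakes (1.06 and 1.16) and early-response genes (0.87 and 0.70) lie far to the right on both, while Treg lineage genes lie at -0.43 on the first and 0.03 on the second; the proliferation list is left out since the rule sets it.

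Several genes outside the rule varied with the size of the sum. Among cells that met the limits, ordered by a sum of 0, 1, 2, 3, 4, 5, 6 to 9 and 10 or more, Egr2 stood at 2.07, 9.85, 38.3, 46.0, 135, 30.0, 88.2 and 175 CPM. Nr4a3 stood at 4.03, 21.7, 31.9, 46.0, 63.8, 42.0, 70.0 and 312. Both were lowest at a sum of 0 and highest at 10 or more, and neither climbed evenly between. Cd69 stood at 62.3 at a sum of 0, 207 at 3, 354 at 4, 174 at 5 and 680 at 10 or more. Klf2 was highest at 0, with 766 at 0, 487 at 3, 425 at 4, 726 at 5, 310 at 6 to 9 and 415 at 10 or more. Its level at 5 rests on the Foxp3eGFP cell rich in Lyz2, and without the cells rich in markers of other types it was 357 at 5, against 773 at 0. Ccr9 was highest in the middle, at 132 with a sum of 0, 306 with 5 and 178 with 10 or more. Nr4a2 and Tagap were concentrated in the highest class, at 134 and 231 CPM in the 50 cells with 10 or more against 6.08 and 39.5 in the 56 cells with 6 to 9. Median depth in the 8 classes lay between 4601 and 5408 UMIs.

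**Figure D3:**
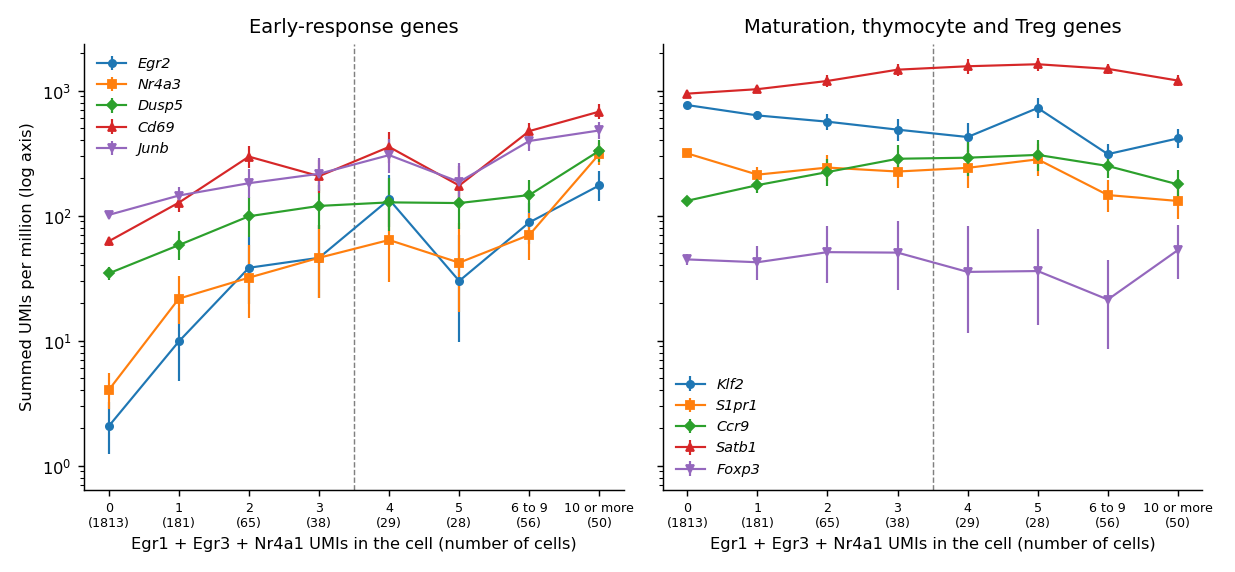
Summed level in CPM (log axis) of 10 genes in cells that met the limits, by the cell's summed Egr1, Egr3 and Nr4a1 UMIs, with exact 95% Poisson intervals and the number of cells under each class; members lie right of the dashed line. Egr2 and Nr4a3 are lowest in the lowest class and over an order of magnitude higher in the highest. Neither climbs evenly between. Foxp3 lies between 21.3 and 53.0, with no steady direction. The Klf2 point at 5 (726) is 357 without 1 cell.

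The members were not alike among themselves. The 41 with an Nr4a3 UMI (18 Lta-/-, 23 Foxp3eGFP) and the 122 without had median depths of 5223 and 5299 UMIs, and median sums of 11 and 7. In those with Nr4a3, the OX40 gene Tnfrsf4 stood at 636 and 872 CPM in the Lta-/- and Foxp3eGFP mouse, against 199 and 248 in those without (log2 1.77, 1.46 to 2.08). Ikzf2, the gene of Helios, stood at 840 and 1041 against 296 and 458. Bcl2a1b stood at 483 and 563 against 86.2 and 112, Rel at 450 and 632 against 170 and 136, and Nfkbia, the main NF-kB inhibitor and target, at 857 and 1311 against 280 and 337. Foxp3 had a log2 ratio of 2.10 (1.06 to 3.19), on 21 UMIs in members with Nr4a3 and 14 in those without. By mouse, Foxp3 stood at 33.9 and 131 against 16.2 and 23.7, so the gap was mostly in the Foxp3eGFP mouse. In both mice, then, members with Nr4a3 carried more Tnfrsf4, Ikzf2, Bcl2a1b, Rel and Nfkbia.

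Il7r and Ccr9 were lower in members with Nr4a3 in both mice. Il7r, the IL-7 receptor alpha chain, stood at 170 and 69.4 CPM in Lta-/- and Foxp3eGFP members with Nr4a3, against 409 and 482 in those without (log2 -1.92, -2.52 to -1.37). Ccr9 stood at 67.9 and 177 against 294 and 269, and S1pr1 at 67.9 and 139 against 232 and 174. Klf2 had a log2 ratio of -0.03 (-0.36 to 0.29). The Foxp3eGFP member rich in Lyz2 supplied 67 of the 310 Klf2 UMIs in members without Nr4a3, and the ratio without that cell was not computed. The members were also divided by Ccr9. The 72 members with a Ccr9 UMI, at a median of 5725.5 UMIs against 5048 in the 91 without, had Satb1 at 1951 and 1988 against 952 and 1029, and Itm2a, a gene of selected thymocytes, at 1560 and 1282 against 536 and 512. They had less of the mature-cell gene H2-Q7, at 91.5 and 44.7 against 384 and 197, and of Ms4a4b, at 559 and 384 against 1467 and 1693.

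**Figure D4:**
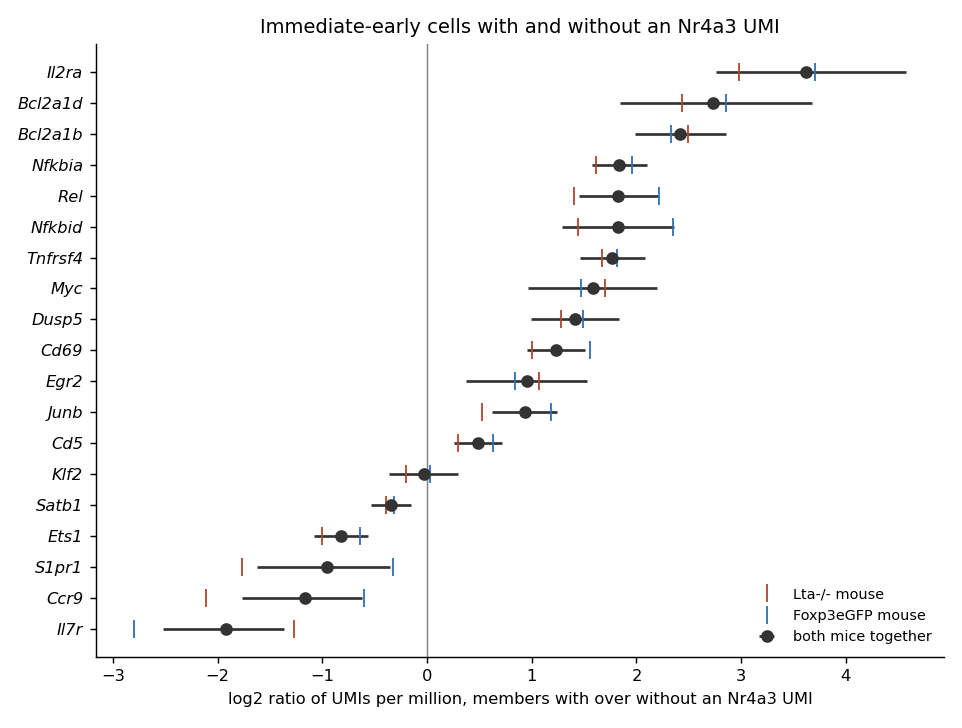
Log2 ratio of CPM in immediate-early cells with over those without an Nr4a3 UMI, both mice together (points, with exact 95% conditional intervals) and in the Lta-/- (red ticks) and Foxp3eGFP (blue ticks) mouse. Il2ra, Bcl2a1b and Tnfrsf4 (1.77) lie to the right of 0 and Ccr9 (-1.17) and Il7r (-1.92) to the left, in both mice. Many of the Il2ra UMIs come from a single member.

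The limits on Tnfrsf9 divide the cells with a high sum into kinds that differ elsewhere. A further 67 cells had a sum of 4 or more with 2 or more Tnfrsf9 UMIs (the gene of 4-1BB) and met the other limits, at a median of 6514 UMIs against 5265 in the members. Tnfrsf4 stood at 362 CPM in the members against 1583 in those cells, Ikzf2 at 521 against 1610, and Bcl2l11 at 133 against 513. Conversely, Il7r stood at 359 in the members against 35.7, Satb1 at 1430 against 576, and Ccr9 at 241 against 52.5. Cd69 stood at 473 against 521 (log2 -0.14, -0.37 to 0.09). Each of these differences past 1.5-fold had the same direction in both mice. The maturation and egress list was 1.02 higher (0.95 to 1.08) and the Treg lineage list -1.23 (-1.32 to -1.14) in the members on the log2 scale. Several lists that were raised over other cells had less in the members than in these cells: receptor-induced factors -0.57 (-0.66 to -0.47), MAPK brakes -0.43 (-0.55 to -0.30), NF-kB genes -0.59 (-0.70 to -0.48) and BCL2-family genes -0.55 (-0.66 to -0.43). The AP-1 and early-response list had 0.37 (0.29 to 0.45), in the other direction. A further 624 cells with 2 or more Tnfrsf9 UMIs met the other limits at a sum of at most 3. Over those 624 cells the members were again lower in receptor-induced factors, at -0.28 (-0.35 to -0.22). MAPK brakes had 0.75 (0.65 to 0.84) there, NF-kB genes 0.08 (-0.004 to 0.15) and BCL2-family genes 0.30 (0.21 to 0.38). Another 66 cells with a sum of 4 or more held 2 or more UMIs of Ctla4, Gpr83, Lrrc32 and Nrp1 together and 0 of Mki67 and Top2a. Over those cells the AP-1 list had -0.12 (-0.20 to -0.05) in the members, at -0.22 in the Lta-/- and 0.02 in the Foxp3eGFP mouse. The maturation and egress list had 0.02 (-0.03 to 0.08). Between these kinds of cells with a high sum, the higher AP-1 and maturation values over both mice together thus held against the Tnfrsf9-high kind only. Over the 66 cells, receptor-induced factors had -0.60 (-0.70 to -0.50) in the members and MAPK brakes -0.32 (-0.45 to -0.19). NF-kB genes had -0.39 (-0.51 to -0.27) and BCL2-family genes -0.22 (-0.34 to -0.09), so these lists were lower against both kinds.

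By genotype, Lta was checked first. Lta had 1 UMI in Lta-/- members against 15 in Foxp3eGFP members (2.04 against 32.1 CPM), and 71 against 494 UMIs in the other cells, lower in the cells labelled Lta-/- in both. Of 1465 genes with 100 or more UMIs in the members, 19 were called at least 1.5-fold higher in Lta-/- members (1.3%) and 48 lower (3.28%). In the other cells, the same fold called 126 of 9598 higher (1.31%) and 215 lower (2.24%). The members held 957081 UMIs and the other cells 28108662, so the same minimum admitted rarer genes in the other cells. These percentages are thus not over like sets of genes. For the early response, read as list sums in which abundant genes weigh most, the interval of each list named next included 0. The AP-1 list had a log2 ratio of -0.05 (-0.14 to 0.04), Lta-/- over Foxp3eGFP members. The MAPK brakes had 0.04 (-0.12 to 0.20) and the receptor-induced factors -0.05 (-0.17 to 0.08). In the first 2 lists 0 genes were called, and in the third Id3 alone was higher. Single genes went both ways without a call. Egr2 stood at 92.0 in Lta-/- against 137 CPM in Foxp3eGFP members, Junb at 319 against 432 and Fos, under the minimum, at 49.1 against 81.2. Cd69 stood at 525 against 419 and Nfkbid at 141 against 120.

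Interferon-response genes were lower in Lta-/- members, with 6 of 12 tested called lower and 0 higher. The list summed to 3963 CPM in Lta-/- members against 5662 in Foxp3eGFP members (log2 -0.51, -0.60 to -0.43). In the other cells it summed to 4060 against 5419 (-0.42, -0.43 to -0.40), so the members shared a difference seen in the whole capture. Ifit1, which binds foreign RNA, stood at 81.8 in Lta-/- against 267 in Foxp3eGFP members, Isg15, a ubiquitin-like modifier, at 258 against 466, and Zbp1, a nucleic acid sensor, at 145 against 276. Samd9l, an interferon-induced antiviral gene, stood at 137 against 276.

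The Treg lineage list stood at 1666 in Lta-/- against 2221 CPM in Foxp3eGFP members (log2 -0.41, -0.55 to -0.28), beside -0.13 (-0.16 to -0.11) in the other cells. None of its 5 tested genes passed the fold. Foxp3 had 10 UMIs in Lta-/- against 25 in Foxp3eGFP members and Il2ra 14 against 60, of which 36 came from 1 cell, so both lay under the minimum. Sox4, a factor of immature thymocytes, was called lower, at 206 against 368.

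The 10 genes with the largest rise in Lta-/- members were Glo1, H2-Q7, Dnah8, Igfbp4, Mif, Aprt, Aurkaip1, Fbl, Anp32e and Smap1, at log2 ratios from 1.41 to 0.68. Glo1, a detoxifying glyoxalase, stood at 239 in Lta-/- against 89.8 CPM in Foxp3eGFP members, and had a log2 ratio of 1.36 in the other cells beside 1.41 in the members. Dnah8 had 0.88 in the members and 1.40 in the other cells, and H2-Q7, an MHC class Ib gene, 1.07 and 0.91. These 3 lie on chromosome 17, as does Lta, at chr17:30592861-30612659, chr17:30626935-30875762 and chr17:35439140-35443773 beside chr17:35203165-35205578 (GRCm38.p6, from RefSeq). Strain-derived sequence around the deleted gene cannot be told apart from an effect of its loss here.

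The 10 genes with the largest fall were Lyz2, Ifitm3, Cd74, Ifit1, Crip1, Samd9l, Cst3, Sdcbp, Zbp1 and Phip. Lyz2, Cd74 and Cst3 are myeloid or B cell genes, and the log2 ratios with the 3 members rich in such markers were -3.85 for Cd74 and -0.99 for Cst3, against -0.49 and -0.03 without them. Lyz2 had 0 UMIs in Lta-/- members and 288 in Foxp3eGFP members, 263 and 25 of them in 2 of those 3 cells, so that without them it had 0 UMIs in both mice. Ifitm3, an interferon-induced membrane protein, had 2 UMIs in Lta-/- against 103 in Foxp3eGFP members (log2 -5.75, -8.82 to -3.86), and 2 against 15 without those cells. Crip1 had a log2 ratio of -1.18 with them and -0.52 without. Ifit1, Samd9l, Sdcbp, Zbp1 and Phip kept values between -1.71 and -0.87 without them.

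**Figure D5:**
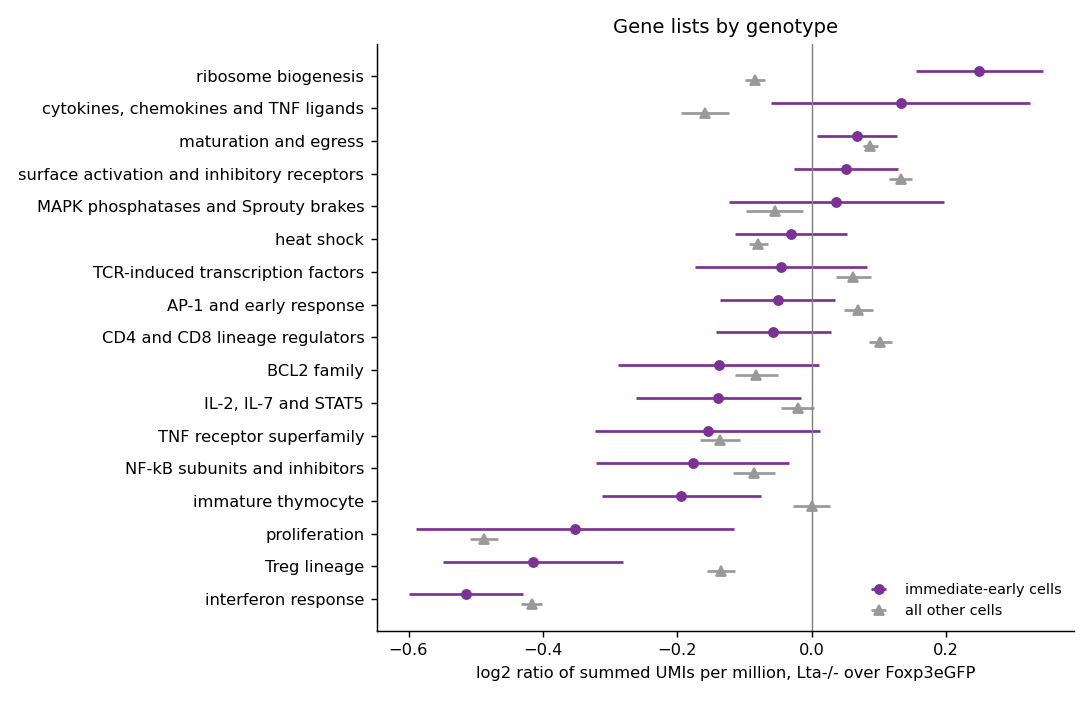
Log2 ratio of summed CPM, Lta-/- over Foxp3eGFP, of 17 gene lists in immediate-early cells (purple circles) and in all other cells (grey triangles), with exact 95% conditional intervals. Interferon genes lie at -0.51 and -0.42, and in the members the AP-1 and MAPK lists lie at -0.05 and 0.04.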

How the data were processed

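The authors deposited 1 matrix of raw UMI counts, whole numbers for each gene in each barcode, with the 2 hashtags as further features; per the labels' protocols the chemistry was 10x 3' v3.1. The submitters' processing notes name Cell Ranger 6.0.1 and the build mm10 or GRCm38. No source used here gives the annotation release or how cells were called. Of 4798 barcodes, 4638 had 500 or more genes and at most 10% mitochondrial UMIs. A cell was assigned to a mouse when 1 hashtag made up 80% or more of its hashtag counts, which left out 185 cells with both. No doublet caller was run. The feature names and the labels' protocols number the hashtag antibodies differently, so the genotype of a cell rests on the feature names.

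Each class of cells was reduced to its summed UMIs per gene, given in CPM (per 1000000 UMIs). The assigned cells held 712 to 52968 UMIs each. Ratios have exact conditional binomial intervals, shares Clopper-Pearson and levels Poisson intervals, at 95%. A ratio against 0 UMIs used 3 counts in its place. Genes needed 100 UMIs, and calls a fold of 1.5. The calculation was checked on simulated Poisson counts only. Those counts lack the clumping of UMIs in single cells, so the intervals were not tested against it. Shares were repeated with cells drawn down to 3000 UMIs. Named genes were the 12 (class) or 10 (genotype) with the largest ratio in each direction at 50 CPM or more, same direction in both mice for the class, leaving out rule genes, mitochondrial, ribosomal protein, predicted, sex-linked and receptor-segment genes. Genes named from the 27 lists come beside these, and the Nr4a3 and Ccr9 splits were chosen after values were seen. The members and the lists were chosen with earlier results of these data known. Positions and promoters are RefSeq's (GRCm38.p6), matched by symbol for 9380 of 9649 tested genes. Python 3.11.15, with the numpy, scipy, pandas and matplotlib libraries, was used.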

Additional observations from a re-analysis of the deposited data

Results flagged for a closer look

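Some lists and named genes moved one way between the mice in immediate-early cells and the other way in all other cells, each with an interval that left out 0. The difference itself was not tested, since there was 1 mouse per genotype, and the genes were named for the size of their ratio in the members. Values are log2 ratios, Lta-/- over Foxp3eGFP, where no other unit is given. Ribosome biogenesis genes, which build ribosomes in the nucleolus, stood at 0.25 in the members and -0.085 in the other cells. Igfbp4 stood at 0.82 and -0.10, Mif, a cytokine with roles inside the cell, at 0.73 and -0.074, Aurkaip1 at 0.70 and -0.13, and Anp32e at 0.69 and -0.23. Cd74, the MHC class II invariant chain, stood at -3.85 and 0.62, and 301 of its 331 UMIs in Foxp3eGFP members came from 1 cell. Myeloid or dendritic markers stood at -2.91 in the members and 0.24 in the other cells. In same-limit cells the ribosome biogenesis list stood at 4087 CPM in the Lta-/- and 3940 CPM in the Foxp3eGFP mouse, the direction of the members. The part of the limits in its opposite sign in all other cells was not tested. Members over other cells, 3 marker lists took opposite signs in the Lta-/- and the Foxp3eGFP mouse: myeloid or dendritic markers at -0.55 and 2.60, B cell markers at -0.92 and 0.23, and NKT or innate-like T markers at 0.41 and -0.76. The members of the Foxp3eGFP mouse include the cells with 301 UMIs of Cd74 and with 263 of Lyz2. A single Lta-/- member held 35 of the 69 UMIs of NKT or innate-like T markers in Lta-/- members. The sign for those markers in that mouse without this cell was not computed.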

How the results depend on the processing

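No paired analysis was possible because the capture held 1 mouse per genotype. The log2 ratio of the 2 member shares stayed within its interval under each of the 7 alternatives that can move it. Against same-limit cells 216 genes were higher and 181 lower, and in cells of matched depth among them 205 and 146. In 1 mouse alone the calls numbered 768 higher and 1308 lower (Lta-/-) and 1087 and 1372 (Foxp3eGFP). A 2-fold rule gave 75 and 246, and a minimum of 1000 UMIs, added after seeing the data, 71 and 176. Thinning to 3000 UMIs left 372 lower. Between genotypes, members with a sum of 6 or more gave 9 higher calls, thinning 4 higher and 8 lower, 2-fold 2 and 7, a minimum of 50 UMIs 98 and 199, and a minimum of 200 UMIs 2 and 12. The sign turned for Aprt (-0.32) and Crip1 (0.35) on thinning, for Cd74 (0.21) without cells holding 3 or more UMIs of other types, and for Fcer1g (-1.34) without those holding 20 or more, an alternative added after seeing the data. Against same-limit cells it turned for the proliferation list (0.0092), Hist1h3c (1.49) and Hist1h1b (0.46, and 0.38 at matched depth). The cause of these changes was not tested. Genes with at most 3 UMIs in both classes gave no value. Among list and gene values over 17 settings, 637 of 855 stayed within the interval, 210 moved and 8 turned. Genes below 100 UMIs in the members, Foxp3 and Il2ra among them, are too sparse for a fold between the mice.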
